A study of Mus musculus with 2 samples.

Results

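The muscle ubiquitin ligases and FoxO factors described here are 10 genes of the 55536 quantified: the MuRF genes Trim63, Trim54 and Trim55, the F-box genes Fbxo32, Fbxo30, Fbxo21 and Fbxo31, and the transcription factor genes Foxo1, Foxo3 and Foxo4. They were chosen by name as ligases of muscle protein breakdown and the factors known to switch some of them on, and each name matched a single gene identifier. All 10 were detected, at 1 TPM or more (TPM is a read count per length, scaled to the same total in each library) in both animals, and all 10 passed the minimum of 50 reads on average.

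Sequencing covered total RNA, depleted of ribosomal RNA, of the gastrocnemius, a calf muscle, from 2 adult female B6CASTF1/J mice aged 8 to 10 months. These mice are hybrids, born of a cross between B6 and CAST, and no treatment or engineered allele is named for them. The libraries, replicate 1 from animal 1 and replicate 2 from animal 3, form 1 group, so no p-value is given and each difference between them is a difference between 2 animals. The donor identifier is shared by both animals in the labels, while their animal and tissue numbers differ.

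A ubiquitin ligase picks the proteins that receive ubiquitin and so go to the proteasome. In skeletal muscle, Fbxo32 (atrogin-1, also called MAFbx) and Trim63 (MuRF1) are the classic genes of atrophy, raised by denervation, fasting, disuse and glucocorticoids. FoxO factors bind the promoters of both when they are in the nucleus, and Akt, acting under insulin and growth factors, phosphorylates them and keeps them in the cytoplasm, so a FoxO transcript level does not give FoxO activity.

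Gene totals were 42605775 and 43301388 expected counts, that is, estimated reads per gene. Fast fibre markers summed to 70294 and 60703 TPM and slow fibre markers to 1312 and 1351 TPM. None of 4 B cell markers was detected, and of 4 cardiomyocyte markers 1 was, so the labelled tissue matched its markers. In replicates 1 and 2 signal recognition particle RNA made up 27.0% and 33.6% of all TPM, and nuclear protein-coding genes 48.2% and 43.3%, which lowers a TPM value in replicate 2 for a gene whose share among messenger RNAs was the same. Levels of different genes are therefore compared within a library, per length, in TPM, and animals are compared through read counts scaled by the trimmed mean of M-values (TMM).

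By mean TPM the 10 genes spanned a range from 4.71 to 179. Trim54 was the highest in both animals, followed by Trim63. Fbxo32, Fbxo31 and Foxo4 came next, Trim55 was in the middle, and Foxo3, Foxo1, Fbxo30 and Fbxo21 were low. The order in replicate 1 was Trim54, Trim63, Fbxo32, Fbxo31, Foxo4, Trim55, Foxo3, Foxo1, Fbxo30 and Fbxo21. Replicate 2 had the same order except that Fbxo31 stood above Fbxo32 and Fbxo30 above Foxo1, and the second quantification of the same reads gave the same order in each animal. Of neighbours by mean level, Fbxo32 and Fbxo31 changed places between the animals, as did Foxo1 and Fbxo30, so their order by gene-level TPM cannot be told from these animals. Trim63 was above Fbxo32 within each library, although the Trim63 value of replicate 2, 96.3 TPM, was below the Fbxo32 value of replicate 1, 102 TPM. Foxo3 and Foxo1 nearly met, since the lower Foxo3 value was 11.61 TPM and the higher Foxo1 value 11.60 TPM. Ranked among 22015 nuclear protein-coding genes, of which 9673 were detected, Trim54 was at position 302 and Fbxo21 at 6460.

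**Figure D1:**
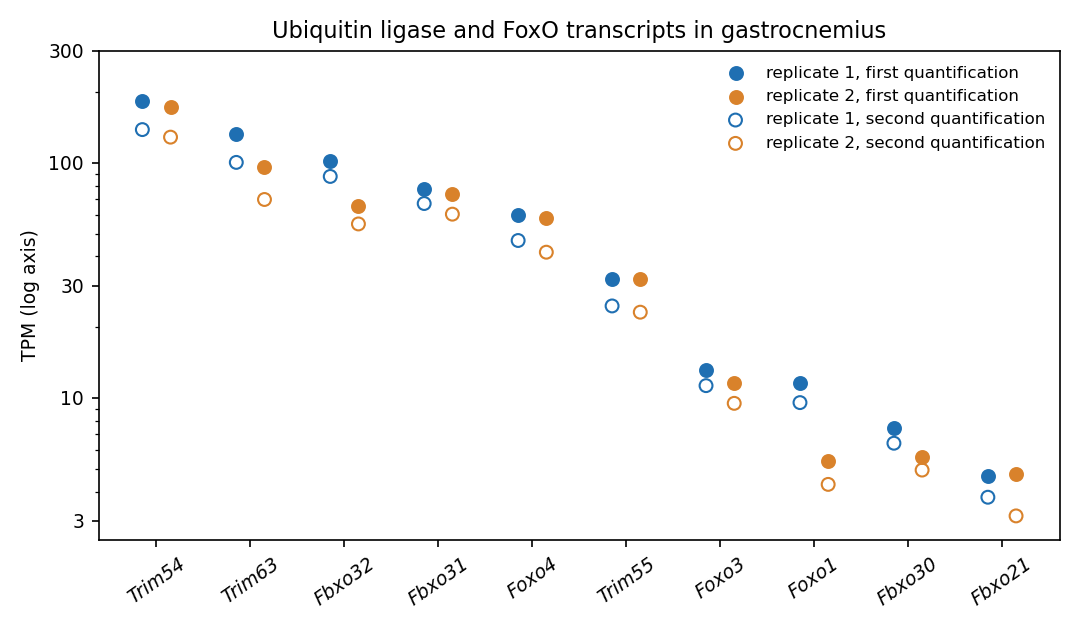
Level of each of the 10 genes in TPM (log axis), in order of mean level. Filled points are the first quantification and open points the second, blue for replicate 1 and orange for replicate 2. Trim54 was highest, at 184 and 174 TPM, and Fbxo21 lowest, at 4.67 and 4.74 TPM. Points of the same animal keep nearly the same order across genes, and the gap between animals was widest for Foxo1.

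Trim54, Trim63 and Trim55 encode MuRF3, MuRF1 and MuRF2, RING finger proteins of the sarcomere and the microtubules that can pair with one another. The 3 genes lie on different chromosomes and are clearly related in sequence. Over their aligned coding sequence, Trim63 and Trim54 had 70.5% identical bases, Trim63 and Trim55 67.6%, and Trim54 and Trim55 66.3%. The stretch below is shown because it is the in-frame stretch of 60 bases in which the 3 messages are most alike. It covers coding bases 262 to 321 of Trim63 and 271 to 330 of Trim54 and Trim55, counted from the A of the start codon, in the transcript that leads each gene (GENCODE M21, mm10); capitals mark the 51 of 60 bases that all 3 share.
Trim63: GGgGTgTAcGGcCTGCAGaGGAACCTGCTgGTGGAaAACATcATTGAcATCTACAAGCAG
Trim54: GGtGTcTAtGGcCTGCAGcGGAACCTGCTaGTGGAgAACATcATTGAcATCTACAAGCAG
Trim55: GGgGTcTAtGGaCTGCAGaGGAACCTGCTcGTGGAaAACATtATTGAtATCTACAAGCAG

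The longest run of identical bases that a pair of coding sequences shared was 28 for Trim63 and Trim54, 17 for Trim63 and Trim55 and 16 for Trim54 and Trim55. In the deposited gene tables the posterior SD of the count was 0 for all 10 genes in both animals, so the authors' quantification shared no reads between these genes and any other. Reads shared between genes therefore do not stand in the way of setting the paralogs against one another. Whether reads of the CAST allele matched the reference equally well for each gene was not tested.

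Trim54 was the leading MuRF gene. Trim54 (ENSMUSG00000062077.14, chromosome 5, 31116712 to 31137630, plus strand, mm10), whose product associates with and stabilises microtubules, was at 184 TPM in replicate 1 and 174 TPM in replicate 2, or 179 ± 7.25 TPM (SD, n = 2). Trim63 (ENSMUSG00000028834.13, chromosome 4, 134315120 to 134329629, plus strand), whose product marks myosin heavy chain and other thick filament proteins, was at 133 and 96.3 TPM, or 114 ± 25.7 TPM. Trim55 (ENSMUSG00000060913.6, chromosome 3, 19644474 to 19692421, plus strand), whose product links the titin kinase region to gene regulation, was at 32.1 and 32.2 TPM, or 32.2 ± 0.064 TPM. The values of the 3 genes did not overlap, and both animals gave the same order.

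As shares of the summed MuRF level, which do not depend on the scaling between libraries, Trim54 held 52.7% and 57.5% (55.1% ± 3.34, SD, n = 2), Trim63 38.04% and 31.87% (34.95% ± 4.37) and Trim55 9.21% and 10.7% (9.94% ± 1.02). The second quantification gave mean shares of 55.3%, 34.8% and 9.89%. Trim63, the family member best known from atrophy, was thus neither the leading nor the smallest share of MuRF message in these animals. Within a library, Trim54 was 1.39-fold above Trim63 in replicate 1 and 1.80-fold in replicate 2, whereas it was 5.73-fold and 5.39-fold above Trim55. The ratio of Trim54 to Trim55 was thus close in the animals, and the Trim63 level was the one that differed against both: it was 4.13-fold above Trim55 in replicate 1 and 2.99-fold in replicate 2.

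**Figure D2:**
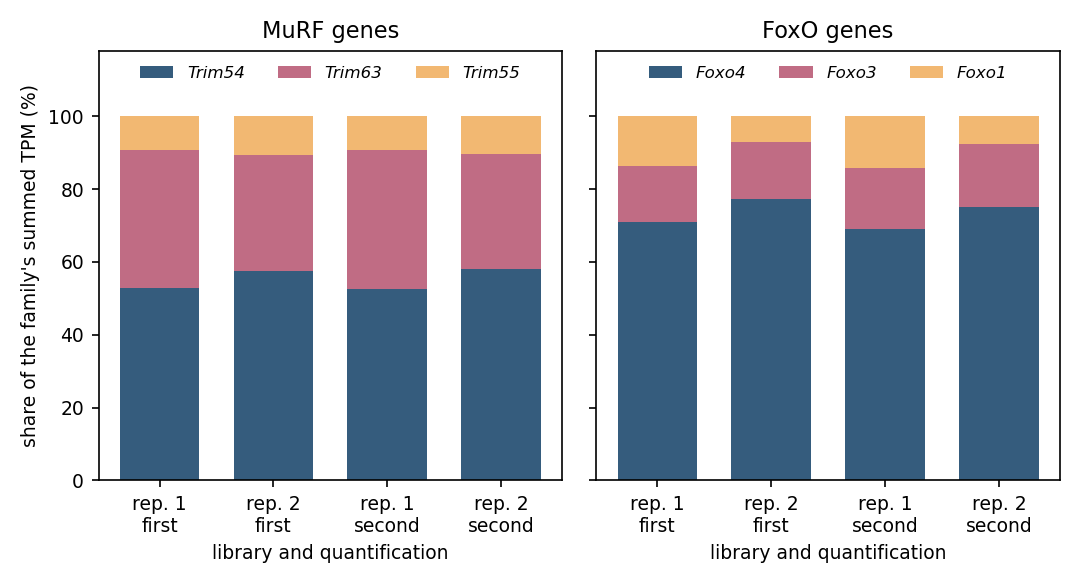
Share of each gene in the summed TPM of its family (%), for the MuRF genes on the left and the FoxO genes on the right, in each library and quantification. Trim54 held 52.7% and 57.5% of MuRF message and Foxo4 70.9% and 77.4% of FoxO message in the first quantification. The Trim63 and Foxo1 segments are narrower in replicate 2, and the 2 quantifications of an animal nearly coincide.

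Among the F-box genes, which give an SCF ligase (Skp1, cullin, F-box) its choice of target, Fbxo32 and Fbxo31 stood far above Fbxo30 and Fbxo21. Fbxo32 (ENSMUSG00000022358.7, chromosome 15, 58175879 to 58214932, minus strand), known for targets such as MyoD, was at 102 TPM in replicate 1 and 65.3 TPM in replicate 2, or 83.8 ± 26.2 TPM (SD, n = 2). Fbxo31 (ENSMUSG00000052934.14, chromosome 8, 121549440 to 121578806, minus strand), known for the breakdown of cyclin D1 after DNA damage, was at 77.8 and 73.6 TPM, or 75.7 ± 3.00 TPM. Fbxo31 was steady while Fbxo32 was not, so Fbxo32 was 1.32-fold above Fbxo31 in replicate 1 and at 0.887 of it in replicate 2.

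Fbxo30 and Fbxo21 encode MUSA1 and SMART, ligases described in denervated mouse muscle, where FoxO factors raise both. Fbxo30 (ENSMUSG00000047648.13, chromosome 10, 11281330 to 11298052, plus strand) was at 7.42 and 5.62 TPM, or 6.52 ± 1.27 TPM. Fbxo21 (ENSMUSG00000032898.9, chromosome 5, 117976730 to 118010201, plus strand) was at 4.67 and 4.74 TPM, or 4.71 ± 0.049 TPM. Both genes were low in both animals, with Fbxo32 13.8-fold and 11.6-fold above Fbxo30, and 21.9-fold and 13.8-fold above Fbxo21. The Fbxo21 level rests on 444 and 433 reads and the Fbxo30 level on 760 and 682, the fewest of the 10 genes.

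On the opposite strand Fbxo31 is overlapped by Gm20388, a gene annotated as protein-coding, which had 1192 and 403 reads beside 5612 and 5787 for Fbxo31. The library kit keeps strand, per the labels, but whether the counting used it is not given in the sources used here. A posterior SD of 0 shows that no Fbxo31 read was shared out with another gene, but if strand was not used, reads of the opposite strand that match Fbxo31 alone would be counted with it. The other overlapping genes, at Fbxo32, Trim54, Trim55 and Foxo1, had 25 reads or fewer.

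Foxo4 was the most abundant FoxO gene. Foxo4 (ENSMUSG00000042903.8, chromosome X, 101254528 to 101260873, plus strand) was at 60.2 and 58.1 TPM, or 59.2 ± 1.51 TPM (SD, n = 2). Foxo3 (ENSMUSG00000048756.11, chromosome 10, 42181841 to 42276755, minus strand), the factor best known for switching on Fbxo32 and autophagy genes in wasting muscle, was at 13.1 and 11.6 TPM, or 12.4 ± 1.06 TPM. Foxo1 (ENSMUSG00000044167.6, chromosome 3, 52268336 to 52353221, plus strand), which also governs the choice between glucose and fat as fuel, was at 11.6 and 5.40 TPM, or 8.50 ± 4.38 TPM. Foxo4 and Foxo3 were close between the animals, and Foxo1 was far lower in replicate 2.

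Foxo4 held 70.9% and 77.4% of the summed FoxO level (74.1% ± 4.55), Foxo3 15.4% and 15.5% (15.4% ± 0.018) and Foxo1 13.7% and 7.19% (10.4% ± 4.57). In the second quantification the mean shares were 72.2%, 16.9% and 10.9%. The rank of the 3 genes was the same in both animals, but the gap below Foxo4 was not: Foxo4 was 5.19-fold above Foxo1 in replicate 1 and 10.8-fold in replicate 2, against 4.594-fold and 5.003-fold above Foxo3. Foxo3 was nearly level with Foxo1 in replicate 1, at 1.13-fold, and 2.15-fold above it in replicate 2. Foxo6, the remaining FoxO gene of the mouse and named here after its values were seen, was at 2.41 and 1.73 TPM and is not part of these sums.

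Coding sequences of the FoxO genes are also related. Foxo1 and Foxo3 had 65.1% identical bases with a longest identical run of 38, Foxo1 and Foxo4 64.3% with a run of 17, and Foxo3 and Foxo4 66.8% with a run of 20. No reads were shared between them by the deposited posterior SD. Foxo1 and Foxo3 have long messages, of 8665 and 6848 bases in their leading transcripts, against 3162 for Foxo4. Per length, their 2789 and 2462 reads in replicate 1 therefore made a TPM far below that of Foxo4, which had 5176 reads.

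Set against the FoxO genes within each library, some ligases kept nearly the same ratio to Foxo4 in both animals. Trim54 was 3.05-fold above Foxo4 in replicate 1 and 2.99-fold in replicate 2, and 14.03-fold and 14.95-fold above Foxo3. Fbxo31 was 1.29-fold and 1.27-fold above Foxo4, and Trim55 was at 0.533 and 0.554 of it. Between the animals these ratios to Foxo4 differed by 1.02-fold for Trim54, 1.02-fold for Fbxo31 and 1.04-fold for Trim55.

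For Fbxo32 and Trim63 the ratio to Foxo4 differed by 1.51-fold and 1.33-fold. Fbxo32 was 1.70-fold above Foxo4 in replicate 1 and 1.12-fold in replicate 2, and Trim63 was 2.20-fold and 1.66-fold above it. Against the summed FoxO level, Fbxo32 was at 1.20 and 0.869 and Trim63 at 1.56 and 1.28. Both ligases were lower against Foxo4 and Foxo3 in replicate 2, but higher against Foxo1, which differed more than they did: Fbxo32 was 8.82-fold and 12.1-fold above Foxo1, and Trim63 11.4-fold and 17.8-fold. Fbxo30 was at 0.123 and 0.0967 of Foxo4, and Fbxo21 at 0.0775 and 0.0816. With 2 animals these ratios describe the libraries, and no correlation between a ligase and a FoxO gene can be given.

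The difference between the animals was then read from counts. Among the 11125 genes that reached 50 reads on average, the log2 ratio of replicate 2 over replicate 1 had a median of 0.004. A gene was counted as past the fold at a log2 ratio of at least 0.322 in size. That held for 2 of the 10 genes in the lower direction, Foxo1 and Fbxo32, where 10.8% of all tested genes were lower. In the higher direction it held for 0 of the 10, where 6.8% of all tested genes were higher. In either direction 17.6% of all tested genes were past it, so 2 of 10 is near the background of this set. Among 5366 genes with a mean count of at least 500, an alternative chosen after seeing the data, 3.82% were lower and 3.76% higher. Foxo1 and Fbxo32 are both in that group, and of the 10 genes only Fbxo21, with 444 and 433 reads, is outside it. The background in that group is thus lower than in the larger set.

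Foxo1 had the widest difference of the 10. Its reads were 2789 in replicate 1 and 1488 in replicate 2, or 65.3 and 34.4 CPM (reads scaled to the same total by TMM), a log2 ratio of -0.92 with a 95% interval from -1.01 to -0.83 (exact, for counting error only). That is 1.89-fold lower in replicate 2, and 0.872% of all tested genes had a lower ratio. Fbxo32 had 19751 and 14437 reads, or 462 and 334 CPM, a log2 ratio of -0.47 (interval -0.50 to -0.44), which 5.73% of all tested genes were below. Both were lower in replicate 2 by far more than counting error, which does not speak to how much animals differ in general.

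Trim63 was on the same side but short of the fold. It had 6608 and 5510 reads, or 155 and 128 CPM, a log2 ratio of -0.28 (interval -0.33 to -0.23), and 13.1% of all tested genes were below it. Fbxo30, with 17.8 and 15.8 CPM, had a log2 ratio of -0.17 (interval -0.32 to -0.02). Trim55 and Trim54 were on the other side of 0. Trim55 was at 43.4 and 49.3 CPM (log2 ratio 0.18, interval 0.09 to 0.28) and Trim54 at 161 and 172 CPM (0.10, interval 0.05 to 0.15). Foxo4 at 0.05, Fbxo31 at 0.03, Foxo3 at -0.03 and Fbxo21 at -0.05 had intervals that included 0.

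Direction depended on scaling for the genes near 0. When libraries were scaled to the ERCC spike-ins, synthetic RNAs of known amount, the median of all tested genes was -0.12. All log2 ratios moved down with it, so that Trim54 was at -0.03, Fbxo31 at -0.10 and Foxo4 at -0.08, and Trim55 alone of the 10 stayed above 0, at 0.06. Foxo1 was then at -1.05, past 2-fold, Fbxo32 at -0.60 and Trim63 at -0.41, past the fold as well. With this scaling 2106 of all 11125 tested genes were past the fold and lower, against 1198 with TMM scaling. With TMM scaling Foxo1 was short of 2-fold, a size that 0.701% of all tested genes passed in the lower direction. The share of all tested genes past 2-fold with spike-in scaling is not given, so the spike-in value of Foxo1 has no like background here.

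**Figure D3:**
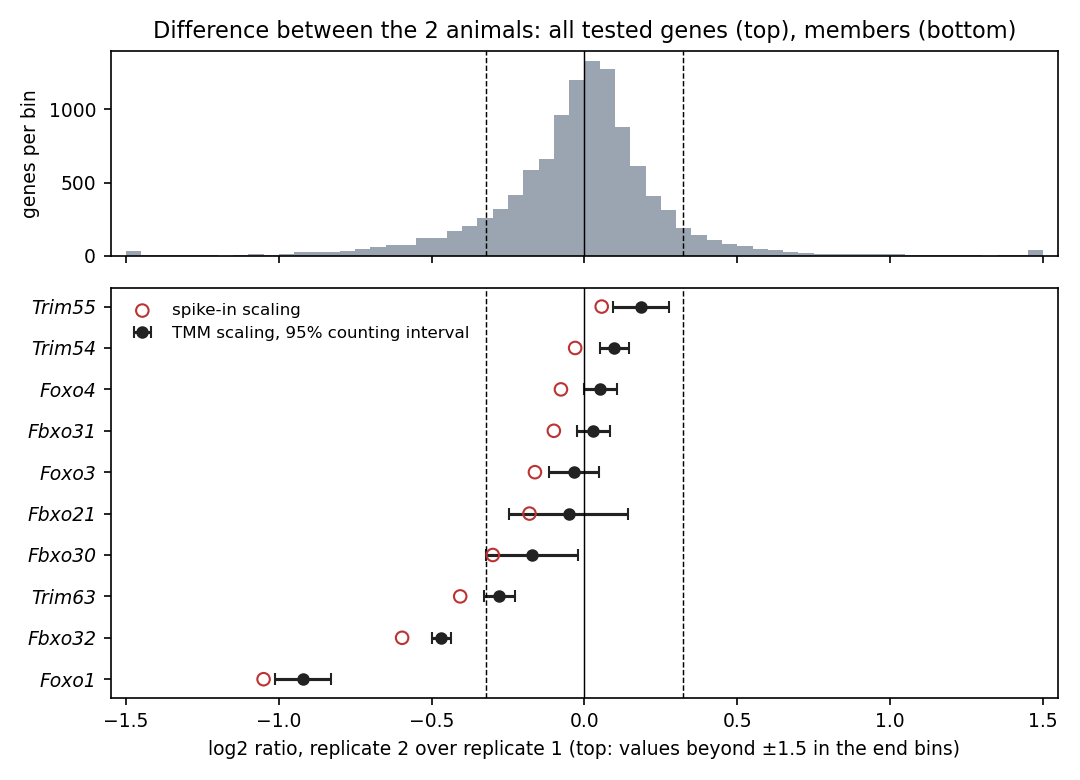
Top, number of tested genes in each bin of the log2 ratio of replicate 2 over replicate 1, for 11125 genes. Bottom, the same ratio for the 10 genes with TMM scaling (black, bars are 95% counting intervals) and with spike-in scaling (open red). Dashed lines mark a log2 ratio of 0.322 in size. Foxo1, at -0.92, and Fbxo32, at -0.47, lie left of the line with TMM scaling, and Trim63 crosses it with spike-in scaling.

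Cell type markers also differed between the animals, and in bulk tissue fewer cells of a type and less RNA per cell cannot be told apart. The Schwann cell list summed to 42.3 TPM in replicate 1 and 6.98 TPM in replicate 2, and all 4 of its tested genes were lower, with a median log2 ratio of -2.14. Fibroblast markers summed to 127 and 91.1 TPM (median -0.25, 1 of 5 past the fold and lower) and endothelial markers to 53.5 and 44.0 TPM (median -0.18, 2 of 5 lower). Tendon markers summed to 37.0 and 26.0 TPM (median -0.35, 2 of 3 tested lower). Smooth muscle and pericyte markers summed to 100.5 and 74.8 TPM, with a median log2 ratio of -0.09 and 1 of 5 higher. Adipocyte markers summed to 4.30 and 3.46 TPM (median -0.32, 1 of 2 tested lower). Satellite cell markers summed to 2.62 and 2.20 TPM and macrophage markers to 5.52 and 4.91 TPM, but by counts their medians were above 0, at 0.07 and 0.15, with 2 genes tested in each list and 0 past the fold. Of all tested genes, 10.8% were lower and 6.8% higher past the fold. No marker gene was at 0 reads in both animals. Slow fibre markers had a median of 0.20, with 2 of 5 higher in replicate 2, and fast fibre markers a median of -0.03. The part of these differences in the Foxo1, Fbxo32 and Trim63 values was not tested.

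The promoter is shown for Trim63 and Trim54, the paralogs that lead the family. RefSeq promoters (GRCm38.p6) were matched for 7 of the 10 genes; Fbxo32, Trim55 and Foxo4 were not. Each sequence is the 250 bases before the RefSeq start of transcription, on the reference genome, so it gives the B6 side of these hybrids and says nothing of the CAST allele. Capitals in Trim63 (chr4:134314870-134315119, plus strand) mark TGTTTAC, a core of the FoxO binding motif, and TATAAA, a common core promoter element. Trim54 (chr5:31116362-31116611, plus strand) has no match to either. The Trim63 stretch ends where its leading transcript begins in GENCODE, at 134315120. The Trim54 stretch ends well before its leading transcript begins, at 31116712. The bases next to that start were not searched, so the 2 stretches do not cover like regions.
Trim63: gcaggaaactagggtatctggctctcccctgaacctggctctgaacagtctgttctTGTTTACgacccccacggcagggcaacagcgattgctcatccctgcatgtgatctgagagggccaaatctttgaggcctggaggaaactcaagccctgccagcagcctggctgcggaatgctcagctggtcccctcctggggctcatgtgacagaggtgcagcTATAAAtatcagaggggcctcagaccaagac
Trim54: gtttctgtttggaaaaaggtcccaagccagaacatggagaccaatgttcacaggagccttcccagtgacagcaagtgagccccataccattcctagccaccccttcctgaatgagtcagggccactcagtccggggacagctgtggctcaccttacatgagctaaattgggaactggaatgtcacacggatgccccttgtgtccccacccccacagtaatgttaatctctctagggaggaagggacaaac

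In Trim63 the TGTTTAC lies 194 bases before the start and the TATAAA 31 bases before it. Searched on both strands, in windows that run from 250 bases before to 50 after the start, TGTTTAC or GTAAACA was in 1 of the 7 promoters and in 3.65% of all 32851 promoters. TATAAA or TTTATA was in 1 of 7, again Trim63, and in 13.6% of all. A match of 7 letters is a description of the sequence, not a measured site, and windows without one say nothing about binding elsewhere.

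Transcripts showed which message each level stands for. Fbxo32 and Foxo1 have 1 annotated transcript each, of 6976 and 8665 bases. Trim63-202, of 1886 bases with 1065 coding, held 98.6% and 99.1% of the Trim63 level. Trim54-201 held 99.5% and 99.3% of Trim54, and Foxo3-203 98.9% and 95.7% of Foxo3. Foxo4-201 held 100% and 92.5% of Foxo4. For these 6 genes a gene-level value is in effect the level of 1 coding message.

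The other 4 genes were mixtures. Trim55-201, the coding transcript of 2595 bases, held 79.05% and 79.07% of Trim55, and the rest was Trim55-202, a non-coding transcript of 506 bases. The latter share came from few reads, 76.7 in replicate 1 and 88.0 in replicate 2, since a short transcript needs few reads for a given TPM. The second quantification put Trim55-202 at 13.3% and 11.2%. Counting the coding transcript alone would thus lower Trim55 further against its paralogs, to 25.4 and 25.5 TPM.

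Fbxo31 was split between Fbxo31-201, with the full coding sequence in 4358 bases, at 55.0% and 51.6%, and Fbxo31-205, an incomplete model of 606 bases, at 44.1% and 47.5%. By reads, Fbxo31-201 had 91.0% and 89.9%. The TPM of Fbxo31 therefore stood at 42.75 and 37.98 for the full message alone, below Foxo4 in both animals rather than above it. That full message was also below Fbxo32, at 102 and 65.3 TPM, in both animals. The second quantification gave Fbxo31-205 45.4% and 47.6%, so that both methods placed it alike.

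Fbxo30-201 and Fbxo30-202 encode coding sequences of the same length, 2238 bases, and differ in the length of the message, 2492 against 5060 bases. Fbxo30-201 held 51.1% of the TPM in replicate 1 and 46.3% in replicate 2. The deposited TPM intervals of Fbxo30-201 and Fbxo30-202 overlapped, at 2.95 to 4.56 and 3.10 to 3.98 in replicate 1. In replicate 2 they were 1.86 to 3.17 and 2.61 to 3.35, so which transcript led by TPM cannot be told. By reads, Fbxo30-202 had 66.5% and 70.6%. In the second quantification Fbxo30-201 led by TPM in both animals, at 55.7% and 55.4%. Fbxo21-201 led Fbxo21 at 67.7% and 64.3% (54.2% and 70.2% in the second quantification). Fbxo21-206 was at 17.8% and 6.81% (26.9% and 9.11%). Fbxo21-202, a non-coding transcript of 387 bases, was listed at 0 in replicate 1 and at 24.65% in replicate 2, but from 10.8 reads, and at 1.39% in the second quantification. That share lowered the effective length of Fbxo21 from 3388 to 2842 bases, so its TPM was higher in replicate 2 while its reads, 444 and 433, were not.

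**Figure D4:**
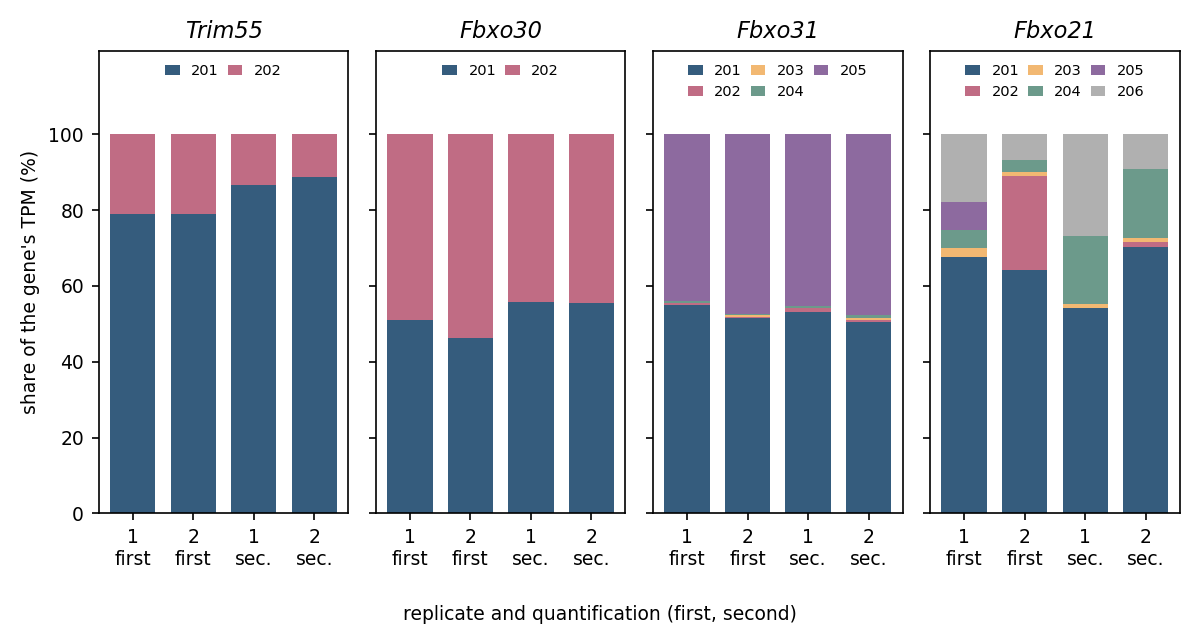
Share of each annotated transcript in the TPM of its gene (%), for the 4 genes with more than 1 sizeable transcript, in each replicate and quantification. Numbers in the keys are the suffixes of the transcript names. Trim55-201 held 79.05% and 79.07% in the first quantification and Fbxo31 was divided between its transcripts 201 and 205. The bars of Fbxo21 differ most between animals and methods.

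The genes around the ligases and FoxO factors were read by role, in 8 lists of 103 genes in all, 102 of them tested. Of these, 7 were higher and 11 lower in replicate 2 past the fold, beside 6.8% and 10.8% of all tested genes. With spike-in scaling these were 4 and 18, beside 408 higher and 2106 lower of all 11125 tested genes with that scaling. Ube2g2, Eif4ebp1 and Pik3r1 then stayed above 0 but were short of the fold, at 0.21, 0.25 and 0.28. The rest of the SCF ligase was present throughout: all 8 genes of the SCF core and neddylation were detected, 0 was past the fold, and the median log2 ratio was 0.08. With spike-in scaling the median was -0.05 and 1 gene was lower, Cand1, a factor that exchanges F-box proteins on the cullin, at -0.35. Skp1a, the adaptor that holds the F-box, was at 123 ± 7.80 TPM (SD, n = 2), Nedd8, the modifier that activates cullins, at 85.8 ± 4.46 TPM, and Ube2m, which transfers it, at 63.6 ± 1.60 TPM. Fbxo32 alone was thus at 102 and 65.3 TPM beside 128.8 and 117.8 TPM for its adaptor.

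Ubiquitin and its activating and conjugating enzymes were abundant, and 2 of them were past the fold. Of 16 genes, 1 was higher (Ube2g2, log2 ratio 0.34) and 1 lower (Uba6, a second ubiquitin-activating enzyme, -0.37), with a median of 0.01; with spike-in scaling these counts were 0 and 2. Ubb, which encodes ubiquitin as a chain of repeats, was at 389 ± 45.1 TPM (SD, n = 2). Ube2b, a conjugating enzyme long linked to muscle proteolysis, was at 244 ± 19.6 TPM. Trim54, the highest of the 7 ligases among the 10 genes, was below both.

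Other ligases known from muscle included genes above the MuRF and F-box genes. Asb2, a cullin adaptor of striated muscle, was at 301 ± 77.1 TPM and lower in replicate 2 at -0.35. Klhl41, a Kelch protein of the sarcomere, was at 271 ± 10.5 TPM, and Fbxo40, a muscle F-box protein known to target the insulin receptor substrate Irs1, at 155 ± 16.0 TPM. Kbtbd13 was higher at 0.56, from 305 and 456 reads. Asb2 and Kbtbd13 were the only ones of the 20 genes past the fold with TMM scaling, Trim72 was just short of it at 0.320, and the median was -0.01.

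Of the known FoxO targets outside the 10 genes, Pdk4 stood apart by the size of its difference. Of 20 such genes, 1 was higher and 1 lower past the fold (0 and 3 with spike-in scaling). By sign 7 were above and 13 below 0, and the median was -0.03, beside 0.004 for all tested genes. Pdk4, the kinase that shuts pyruvate out of the mitochondrion and a well known FoxO1 target, was at 403 TPM in replicate 1 and 174 TPM in replicate 2. Its reads were 27564 and 13339, a log2 ratio of -1.06. Whether the Pdk4 difference is linked to that of Foxo1 was not tested. Eif4ebp1, a repressor of translation, was higher at 0.38, but was short of the fold in the second quantification, at 0.29. Sqstm1, the autophagy receptor p62, was at 218 ± 20.2 TPM and Sod2, the mitochondrial superoxide dismutase, at 167 ± 2.01 TPM, with log2 ratios of -0.03 and 0.05.

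Among the genes that control FoxO factors, Irs1, the docking protein through which insulin reaches Akt, was lower in replicate 2. It had 9732 and 5165 reads, 38.3 and 17.8 TPM, and a log2 ratio of -0.93. Whether the Irs1 difference is linked to that of Foxo1 was not tested. Sgk1, a kinase that like Akt phosphorylates FoxO factors, was higher at 0.47, as was Pik3r1 at 0.40. Akt2, the Akt of insulin action in muscle, was the highest of the 17 genes at 88.7 ± 3.17 TPM, with Prkaa2, an AMP-activated kinase subunit, at 71.6 ± 2.66 TPM and Sgk1 at 65.7 ± 11.2 TPM. The list had 2 genes higher and 2 lower (1 and 4 with spike-in scaling), and a median of 0.01.

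Of 12 other regulators of the atrophy ligases, 4 were lower, beside 10.8% of all tested genes. With spike-in scaling 5 were lower, beside 2106 of all 11125 tested genes. The 4 were Hdac4, a deacetylase that rises in denervated muscle, at -0.83, Nr3c1, the glucocorticoid receptor, at -0.48, Myog (myogenin) at -0.48 and Smad3, a carrier of myostatin signals, at -0.46. Cebpd was higher at 0.96 from 171 and 339 reads, and the median of the list was 0.08. Cebpb was at 43.5 ± 2.10 TPM, Tfeb, a master gene of lysosomes, at 43.4 ± 1.16 TPM and Nr3c1 at 39.7 ± 12.6 TPM. Hdac4 was at 51.9 and 27.4 TPM.

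Targets of the glucocorticoid receptor went in both directions. Of 7 tested, Tsc22d3 (GILZ) and Ddit4, at -0.66 and -0.75, were lower, and Fkbp5 and Sgk1, at 0.54 and 0.47, were higher, with a median of 0.17. Past the same fold, 10.8% of all tested genes were lower and 6.8% higher. Tsc22d3 was at 180 ± 70.5 TPM, Sgk1 at 65.7 ± 11.2 TPM and Klf9 at 52.1 ± 0.099 TPM. Of the genes that MuRF2 meets at the titin kinase, 0 of 4 were past the fold, with a median of 0.02. Ttn, titin itself, was at 4140 ± 643 TPM, Sqstm1 is given above, and Srf, the transcription factor that MuRF2 is known to hold back, was at 34.98 ± 2.84 TPM.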

How the data were processed

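Each of the 2 gastrocnemius samples gave 1 library of total RNA, made per the labels from 300 ng with a kit that keeps strand; ERCC RNAs were added. The authors deposited, per library, gene and transcript tables (first quantification, in the layout RSEM writes) and a transcript table in the layout of kallisto (second quantification), for mm10 and GENCODE M21 per the deposited descriptions. The programs were not given in the sources used here, and the expected counts the authors deposited are estimated reads, not normalized. The deposited TPM values are scaled by effective length to a fixed total over all features, spike-ins included. The deposited percent values give the share of each transcript in the TPM of its gene.

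Symbols came from the second transcript table, which lists no symbol for 86 gene identifiers. Its values were added up per gene. Before use in edgeR 4.0.16 (R 4.3.3) counts were rounded to whole numbers. Log2 ratios used TMM library sizes and a prior count of 2, for genes with a mean count of at least 50; counting intervals are exact, at 95%, and cover counting error only. With 1 group there is no test, and values are means ± SD. The 2 libraries were counted as 2 replicates because their animal numbers differ. They differed by more than sampling noise (chi-square of 29.2 per degree of freedom over genes). That value cannot tell 2 animals from 2 preparations of 1 animal. The step that gives the ratios was tested on simulated counts, scored at 2-fold and not at the smaller fold used for the calls. Coding sequences were aligned with Biopython 1.88; other steps ran in Python 3.11.15 with SciPy 1.17.1, NumPy 2.4.6 and pandas 2.3.3. Alternatives for ratios were scaling by DESeq2 1.42.0 or by spike-ins, a smaller prior count (0.5), the second quantification, and count minimums of 10, 500 and none; for levels, the second quantification, posterior mean TPM, TPM rescaled to nuclear protein-coding genes, either animal alone and other detection thresholds.

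The genes and lists were chosen with earlier results of these data known. Named genes are the 10 members, and of each list the 3 highest by mean TPM and all past the fold; Foxo6, Trim72, Cand1 and Gm20388 were named after their values were seen. Of the genes this rule names, 2 are not reported here. Marker lists are given as sums. Allele of origin was not analysed here.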

Additional observations from a re-analysis of the deposited data

How the results depend on the processing

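No paired analysis was possible because both libraries belong to the same group. With 2 animals, leaving out either returns the share of the other, which is no separate check. Within the MuRF genes these shares were 52.7% to 57.5% for Trim54, 31.87% to 38.04% for Trim63 and 9.21% to 10.7% for Trim55. Within the FoxO genes they were 70.9% to 77.4% for Foxo4, 15.4% to 15.5% for Foxo3 and 7.19% to 13.7% for Foxo1. The Foxo3 share, 15.4% in the first quantification, was 15.8% from posterior mean TPM and 16.9% in the second quantification, more than its spread between animals. The number of tested genes past the fold in replicate 2, 757 higher and 1198 lower, was 408 and 2106 with spike-in scaling, 1538 and 2209 with a count minimum of 10, 4638 and 5502 with none, and 202 and 205 with a minimum of 500, which was added after seeing the data. Of the surrounding genes, 7 were higher and 11 lower, and with spike-in scaling 4 and 18. Foxo1 and Fbxo32 were past the fold and lower under every scaling, prior count and quantification tried, and Trim63 with spike-in scaling alone. Rescaling TPM over nuclear protein-coding genes raised every member's mean level by more than its spread, to 391 TPM for Trim54 and 10.3 TPM for Fbxo21. Between the quantifications the mean share of the leading transcript differed most for Trim55-201, at 79.1% and 87.7%, and Fbxo30-202, at 51.3% and 44.4%.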
